A study of Mus musculus with 2 samples.

Results

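Cytoplasmic RNA granules and the RNA-binding proteins that populate them were followed through the genes Tdrd7, Caprin1, Caprin2, Rbm24, Celf1, Celf2, G3bp1, G3bp2, Tia1 and Stau1. A gene counted as measured when a probe of the array carried its symbol and no other. This held for 9 of the 10 genes, out of 13709 genes named in this way, and each of the 9 had a single probe. Caprin2 had no such probe and was not analysed here. The samples were cortical fiber cells and epithelial cells of the mouse eye lens, taken from 5 mice aged 13 days, with 1 array for each cell population. The lenses were pulled apart with forceps into the capsule, to which the epithelium adheres, and the cortical fibers. Neither sample had a treatment or an altered allele in the labels. The sources used here give neither the strain nor whether the 5 mice were pooled for each array.

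RNA granules are compartments without a membrane in which messenger RNAs are stored, sorted, silenced or degraded. Stress granules assemble when translation initiation stalls, around the scaffold proteins G3BP1, G3BP2 and Caprin-1 and the nucleating protein TIA1, while processing bodies hold the machinery that removes poly(A) tails and caps. Fiber cells lose their nuclei as they mature, after which no new transcript can be made, and control of RNA after transcription is therefore prominent in this tissue. TDRD7, a Tudor domain protein of RNA granules, is known for cataract when it is lost in humans and in mice, and loss of CELF1 or RBM24 also disturbs eye development in animals.

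Of the 9 measured genes, Tdrd7 was higher in the cortex, Tia1 was higher in the epithelium, and the other 7 differed by less than 3-fold. The value for each array is a normalized intensity, in units close to the median of that array (0.998 on both). To count as higher in a sample, a gene had to be brighter there by 3-fold or more, with the brighter value at or above the median of its array. With 1 array per group there is no replicate and no test. By the same rule 9.41% of the 13709 genes were higher in the cortex and 8.17% in the epithelium, 17.6% in all. The 1 of 9 in each direction (11.1%) therefore lay near the background. These counts did not set the genes apart from the array, though 9 genes are few for such a comparison. The median log2 difference, cortex minus epithelium, was -0.02 over the 9 genes and 0.03 over the 8351 genes measured on both arrays. All 9 lay above the floor used for low values (0.499 on both arrays), so every fold of these 9 is measured and none is a bound. The background above also counts genes at the floor on both arrays, which cannot be called. Of the 8351 genes above the floor on both, 76.6% differed by less than 3-fold. In dissected tissue, fewer cells of a type and less RNA per cell cannot be told apart.

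**Figure D1:**
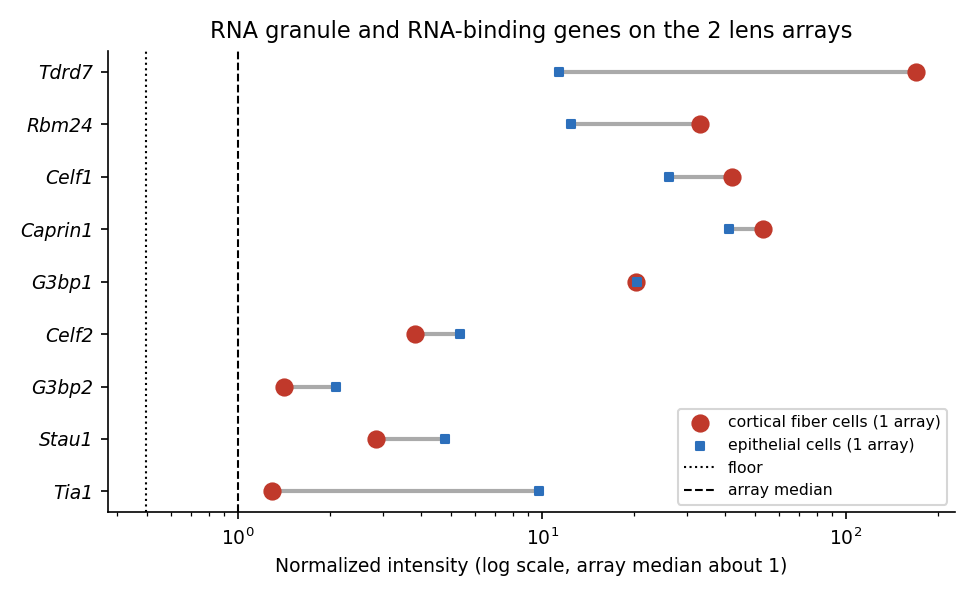
Normalized intensity (horizontal axis, log scale) of the 9 measured genes (vertical axis) on the cortical fiber array (circles) and the epithelial array (squares), 1 array each, with the floor and the array median as vertical lines. Tdrd7 stands at 170 in cortex and 11.4 in epithelium, Tia1 at 1.29 and 9.74, and the points of G3bp1 coincide.

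The annotated start regions of these 2 genes are shown first, because they are the genes that separate the 2 arrays. Each window runs from 250 bases before to 50 bases after an annotated RefSeq start, read along the strand of its gene in GRCm38.p6, and all 10 genes matched at least 1 window, with 19 windows in all. Tdrd7 has 3 windows on chromosome 4, and the most upstream, chr4:45965085-45965384, and the next, chr4:45972047-45972346, are printed. Tia1 has 1, chr6:86403969-86404268, and these windows lie on the plus strand. Capitals mark every match, on either strand, to the motifs searched, which can overlap. These were the TATA box TATAAA, the CCAAT box, the GC box GGGCGG, the ETS core CCGGAAG, the E-box CACGTG and TGCTGA of the Maf element. Heat shock units were searched as the pairs GAANNTTC and TTCNNGAA. The core of the NRF1 element, TGCGCA, was added after the Tia1 window had been read.
Tdrd7, upstream start: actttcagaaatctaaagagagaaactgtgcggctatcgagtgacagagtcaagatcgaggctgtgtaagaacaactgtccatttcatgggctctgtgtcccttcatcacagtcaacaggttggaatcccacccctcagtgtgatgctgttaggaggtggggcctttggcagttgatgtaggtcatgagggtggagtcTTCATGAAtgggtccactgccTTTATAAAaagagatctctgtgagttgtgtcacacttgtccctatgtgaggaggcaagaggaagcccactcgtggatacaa
Tdrd7, next start: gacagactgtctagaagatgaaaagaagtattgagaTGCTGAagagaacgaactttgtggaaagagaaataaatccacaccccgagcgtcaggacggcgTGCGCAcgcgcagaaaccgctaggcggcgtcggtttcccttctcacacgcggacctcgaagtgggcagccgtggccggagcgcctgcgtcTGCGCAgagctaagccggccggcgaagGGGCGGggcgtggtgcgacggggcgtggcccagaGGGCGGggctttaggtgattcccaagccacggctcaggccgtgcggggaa
Tia1: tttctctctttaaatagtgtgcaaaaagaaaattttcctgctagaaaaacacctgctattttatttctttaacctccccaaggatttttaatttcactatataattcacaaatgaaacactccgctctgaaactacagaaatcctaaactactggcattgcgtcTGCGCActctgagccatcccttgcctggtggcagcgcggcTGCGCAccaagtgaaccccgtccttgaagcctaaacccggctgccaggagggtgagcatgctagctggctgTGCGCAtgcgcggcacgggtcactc

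The 2 Tdrd7 windows differed in composition. The upstream window held 48.3% G and C with 4 CpG dinucleotides, and the next held 63.0% with 32. Over all 32851 windows of this length the median was 52.7% with 7 CpG. In the upstream window TATAAA began 29 bases before the start and TTCATGAA, a pair of heat shock units, began 52 bases before it. These motifs are held by 13.6% and 15.1% of all windows. Neither motif was found in the other 2 Tdrd7 windows, which held 2 GC boxes each, a motif found in 35.7% of all windows. The table does not say which start gave the RNA that the Tdrd7 probe measured. The Tia1 window held 48.0% G and C, and TGCGCA was the one found, 3 times, beginning 86 and 46 bases before the start and 25 bases after it. That motif occurs in 7.76% of all windows, and also in both downstream Tdrd7 windows and in windows of Celf1 and G3bp2. The most upstream windows of the remaining genes were G and C rich, from 64.0% for G3bp1 to 78.7% for Caprin1, except that of Celf2 (46.7%). A match is a description of letters and does not show that a factor binds.

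Tdrd7 (Entrez 100121) encodes a protein with Tudor and LOTUS domains. Its intensity was 170 in the cortex and 11.4 in the epithelium. The cortex value was 14.9-fold higher, a log2 difference of 3.90. Of the 8351 genes measured on both arrays, 114 (1.37%) differed by at least as much in that direction. The gene was well above the median of the epithelial array too, so its transcript was measured in both populations. Its fold depended on the scaling between the arrays without losing the call. It was 10.5-fold after quantile normalization, near that after a loess correction on brightness (log2 3.32) and 7.91-fold after centring on ribosomal protein genes.

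The genes whose pair of values lay nearest to that of Tdrd7, by Euclidean distance over the 2 log2 values, were Arhgap45, Ptpra, Irf1, Tmem210 and Ptpn20. Arhgap45 stood at 147 in cortex and 11.9 in epithelium, at a distance of 0.22. Ptpra, a receptor tyrosine phosphatase, stood at 136 and 13.2. Irf1, a transcription factor of the interferon response, stood at 133 and 13.3. Likeness over 2 arrays is a statement about 2 numbers and carries no more than that.

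Tia1 (Entrez 21841) encodes an RNA-binding protein with a prion-like tail that represses translation and nucleates stress granules. It was the one measured gene past the rule in the other direction. Its intensity was 1.29 in the cortex and 9.74 in the epithelium, which is 7.55-fold lower in the cortex, a log2 difference of -2.92. Of the genes measured on both arrays, 155 (1.86%) were at least as much lower in cortex. The cortex value lay close to the array median, where the signal is weak, but above the floor. It was also above the median itself, so raising the floor to the median could not change the fold. The fold was 7.94 after quantile normalization and was 14.3 when the arrays were centred on ribosomal protein genes. Tial1, the close relative that encodes TIAR and was named for that relation and not by the naming rule, was measured by 2 probes that disagreed. The brighter stood at 29.7 in cortex and 17.9 in epithelium (log2 difference 0.73), and the dimmer at 3.56 and 9.71 (-1.45). The log2 difference of Tia1 lay 3.65 below that of the brighter Tial1 probe, and the opposite signs of the Tial1 probes leave that gene without a direction.

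**Figure D2:**
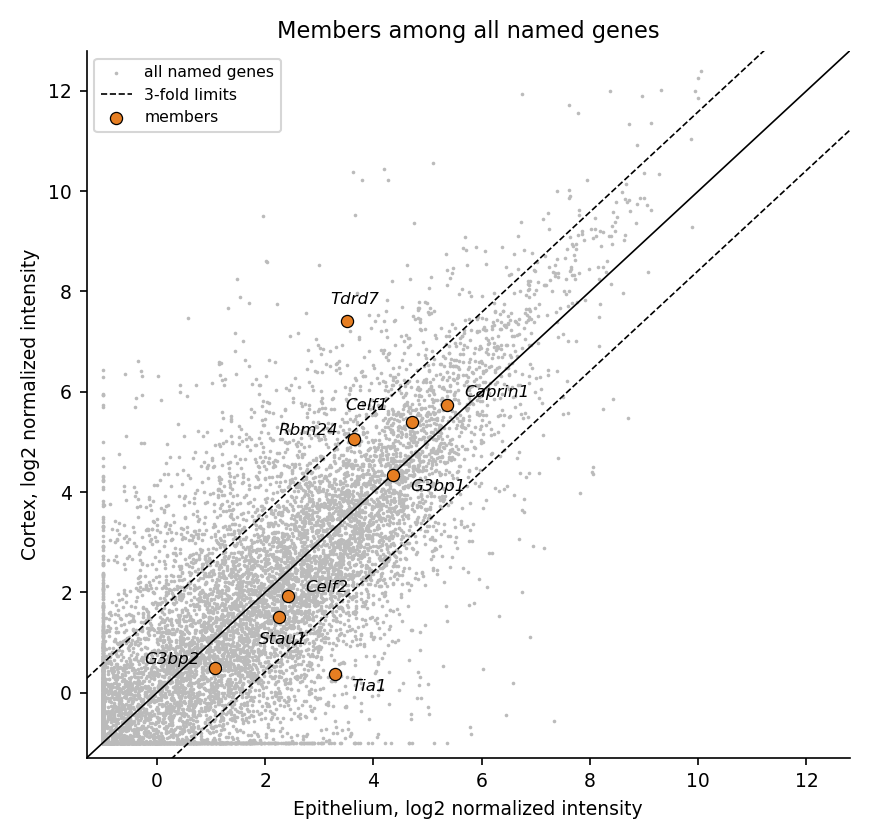
log2 normalized intensity in epithelium (horizontal axis) and cortex (vertical axis) of all 13709 named genes (grey) and the 9 measured members (orange), 1 array each. The solid line marks equal values and the dashed lines the 3-fold limits, and Tdrd7 and Tia1 are the 2 members outside them.

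Rbm24 (Entrez 666794), an RNA-binding protein that controls splicing and transcript stability and is known to act on Sox2 mRNA in the developing eye, came next in the order of differences. It stood at 33.1 in the cortex and 12.5 in the epithelium, a 2.66-fold difference (log2 1.41) that did not reach the rule. It remained brighter in the cortex after quantile normalization (2.09-fold), loess (2.16-fold) and centring on ribosomal protein genes (1.41-fold). The other floors and the mean over probes could not change its values, since it has 1 probe and lies above the median on both arrays. Of genes measured on both arrays, 15.4% were at least as much brighter in the cortex, so a difference of this size was common. Its probe was annotated by an expressed sequence tag, not by a RefSeq transcript.

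The CELF proteins bind GU-rich elements and regulate splicing, deadenylation and translation. Celf1 (Entrez 13046) stood at 42.0 in the cortex and 26.2 in the epithelium, 1.61-fold brighter in the cortex (log2 0.68). Celf2 (Entrez 14007) stood at 3.82 and 5.38, 1.41-fold brighter in the epithelium (log2 -0.49). Neither passed the rule, and the sign of Celf1 turned after centring on ribosomal protein genes (-0.23). The gap between their log2 differences was 1.18, and 0.68 to 1.18 over the settings. Between different probes of 1 gene, the pooled SD of the log2 difference was 1.10 over 558 genes, which gives 1.55 as the SD of such a gap. The gap between the CELF genes was thus not larger than this pooled spread. The median SD over the same genes was smaller, 0.59, so whether the gap exceeds the spread depends on the measure. The spread between probes holds no variation between arrays or animals, and it is the only error these data give.

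The stress granule scaffolds differed by less than 2-fold with the deposited scaling. Caprin1 (Entrez 53872), whose product binds G3BP1, stood at 53.4 in the cortex and 41.2 in the epithelium, a 1.30-fold difference (log2 0.37) whose sign turned after quantile normalization (-0.33), loess (-0.23) and centring on ribosomal protein genes (-0.54). G3bp1 (Entrez 27041) stood at 20.3 and 20.6 and had the smallest difference of the 9, 1.01-fold (log2 -0.02). G3bp2 (Entrez 23881) stood at 1.41 and 2.09, 1.48-fold brighter in the epithelium (log2 -0.57). After centring on ribosomal protein genes the difference toward the epithelium was 1.91-fold for G3bp1 and 2.80-fold for G3bp2, and neither passed the rule. Usp10, a deubiquitinase that competes with Caprin-1 for G3BP1 and was named for that relation, stood at 26.4 and 24.9 (log2 0.09). The log2 differences of Caprin1 and Usp10 lay 0.39 and 0.11 above that of G3bp1, gaps smaller than the spread between probes given above.

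Stau1 (Entrez 20853) encodes Staufen1, which binds double-stranded RNA, transports transcripts and recruits UPF1 for their decay. It stood at 2.83 in the cortex and 4.79 in the epithelium, a 1.69-fold difference toward the epithelium (log2 -0.76) under the rule. After centring on ribosomal protein genes it reached 3.20-fold and passed. Its relative Stau2, named for that relation, had 2 probes, at 5.76 and 4.85 (log2 0.25) and at 3.81 and 1.92 (log2 0.99). Both Stau2 probes were brighter in the cortex and both were under 3-fold.

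**Figure D3:**
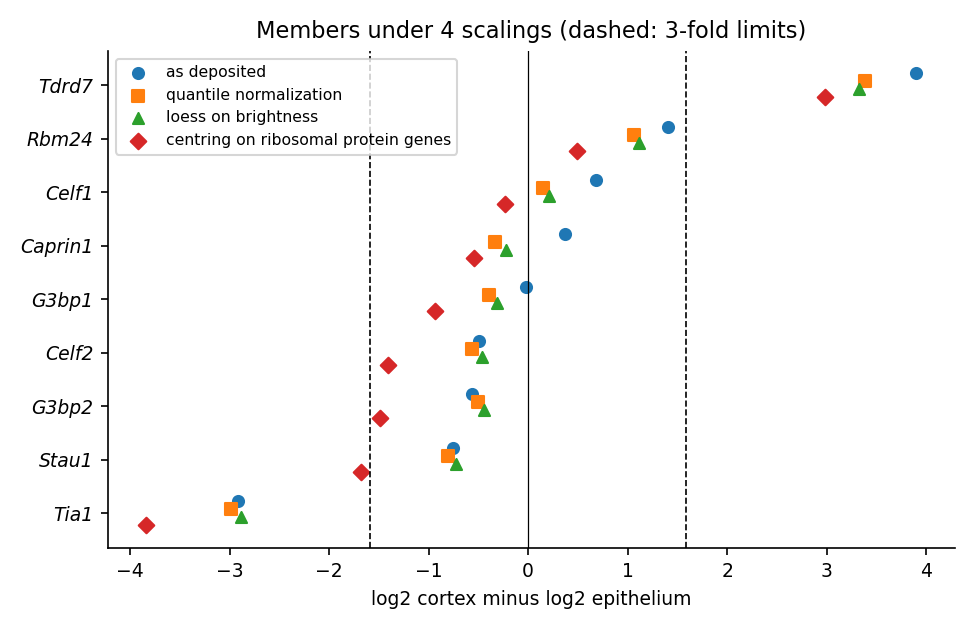
log2 cortex minus log2 epithelium (horizontal axis) of the 9 measured genes (vertical axis) with the deposited scaling and under 3 other scalings, 1 array per sample, with dashed lines at 3-fold. Tdrd7 and Tia1 lie outside the dashed lines under all 4 scalings, Stau1 does so after centring on ribosomal protein genes alone, and the signs of Celf1 and Caprin1 turn.

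Ribosomal protein genes, 67 of them, had a median log2 difference of 0.92, and centring on them moved the median of the genes measured on both arrays from 0.03 to -0.89. That shift is the same for every gene except those at the floor on both arrays, which stay at 0. It left Tdrd7 at 2.98 and Tia1 at -3.84. The gap between Tdrd7 and Tia1 was 6.82 on the log2 scale and 6.21 to 6.82 over the deposited and the 3 other scalings. Of the 9 genes, 6 lay within 2-fold with the deposited scaling, as did 57.0% of the genes measured on both arrays.

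The genes around these factors were examined in 5 lists. Over the 118 measured genes of these lists together, 8 (6.78%) were higher in the cortex and 11 (9.32%) in the epithelium, again near the background of 9.41% and 8.17%. The 85 of them above the floor on both arrays had a median log2 difference of -0.26, against 0.03 for all such genes. The list medians below include genes at the floor on both arrays, as 0. Folds for genes at the floor on 1 array are given as "at least".

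Among 14 measured Tudor domain and germ granule genes, 1 was higher in the cortex, none in the epithelium, and 6 were at the floor on both arrays. Their median difference was 0.00, as was that of all genes, and -0.26 over the 5 above the floor on both arrays. The exception was Tdrd1, a Tudor protein of the piRNA pathway, which stood at 6.63 in the cortex and was at the floor in the epithelium, at least 13.3-fold higher (6.65-fold as a bound when the floor is raised to the array median). The germ cell genes Tdrd5, Tdrd9, Ddx4, Stk31, Rnf17 and Mov10l1 were those at the floor. Tdrd3, a Tudor protein of stress granules, stood at 14.1 and 16.9, and Snd1, a nuclease with a Tudor domain, at 8.65 and 13.8, both under the rule.

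Among 29 other stress granule genes, 1 was higher in the cortex and 4 in the epithelium. Their median was -0.15, and -0.24 over the 25 measured on both arrays. Higher in the epithelium were Hdac6, a cytoplasmic deacetylase (2.19 against 12.7, 5.79-fold), and Eif2ak3, the kinase PERK that phosphorylates eIF2α (0.797 against 4.57, 5.73-fold). Rbm3, a cold-inducible RNA-binding protein (5.11 against 23.0, 4.49-fold), and Hnrnpa1, a splicing factor (3.32 against 12.7, 3.84-fold), were higher there as well. The second, dim probe of Rbm3 differed by -0.54, and the mean over its probes did not pass. Pabpc1, the main cytoplasmic poly(A)-binding protein, was higher in the cortex (438 against 121, 3.61-fold). It fell under the rule after quantile normalization (1.69-fold), loess (1.72-fold) and centring on ribosomal protein genes (1.91-fold). After that centring 10 genes of the list were higher in the epithelium and none in the cortex, beside 20.1% and 4.30% of all genes.

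Of 38 processing body and mRNA decay genes, 3 were higher in the cortex and 4 in the epithelium. Their median was -0.15, and -0.30 over the 33 measured on both arrays. Tnrc6b, a GW182 scaffold of microRNA silencing, stood at 31.4 in the cortex and 0.819 in the epithelium, 38.3-fold higher. Its second probe, at 12.1 and 2.09, went the same way, with a log2 difference of 2.54. The fold of Tnrc6b was 38.9 after loess, 5.52 after quantile normalization and 14.9 with the mean over probes, still past the rule. The probe that represents a gene was chosen anew in each setting. The log2 difference after quantile normalization, 2.47, lay near that of the second probe, so that fold is not the first probe rescaled. Zfp36, tristetraprolin, which destabilizes AU-rich transcripts, was 5.29-fold higher in the cortex (8.29 against 1.57), and 2.80-fold after centring on ribosomal protein genes. Tob2, an antiproliferative adaptor of deadenylation, was 3.53-fold higher (6.88 against 1.95), while both values of its second probe were at the floor, and it did not pass with the mean over probes (1.88-fold) or after that centring (1.87-fold).

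The 4 decay genes higher in the epithelium were Btg1, Lsm2, Parn and Cnot6. Btg1, an antiproliferative factor that activates deadenylation, stood at 8.35 in the cortex and 103 in the epithelium, 12.4-fold. Lsm2, a subunit of the ring that binds the ends of decaying RNAs, stood at 1.38 and 6.60, 4.79-fold. The deadenylase genes Parn (0.543 against 2.47, 4.55-fold) and Cnot6 (0.698 against 2.67, 3.83-fold) had cortex values between the floor and the median, and neither passed when the floor was raised to the median. Centring on ribosomal protein genes gave counts of 1 in cortex and 12 in epithelium for the list, beside 4.30% and 20.1% of all genes.

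Of 27 other splicing and stability genes, 3 were higher in the cortex and 3 in the epithelium. Their median was 0.00, but 7 of them were at the floor in both samples and entered as 0. Over the 15 measured on both arrays the median was -0.43, against 0.03 for all genes so measured. Of the polypyrimidine tract binding family, Ptbp3 and Ptbp1 differed in opposite directions, and Ptbp2 was at 0.635 in the cortex and at the floor in the epithelium, with no call. Ptbp3 stood at 203 in the cortex and 28.4 in the epithelium, 7.15-fold higher in the cortex. Ptbp1, the general splicing repressor of the family, stood at 4.86 and 27.1, 5.58-fold higher in the epithelium. Both calls held under each of the 3 other scalings. The splicing factor Rbfox1 (5.98 against 0.502, 11.9-fold, 5.99-fold as a bound with the raised floor) and Rbm38, a relative of Rbm24 (4.97 against 0.796, 6.24-fold), were higher in the cortex. Rbm20, a splicing factor known from heart muscle (at least 5.99-fold), and Hnrnpd, which binds AU-rich elements (8.67 against 30.6, 3.53-fold), were higher in the epithelium. Rbm20 no longer passed when the floor was raised to the median.

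Of 10 measured Staufen partners and genes of nonsense-mediated decay and the exon junction complex, none passed the rule in either direction. The median was -0.13, and -0.26 over the 7 measured on both arrays. The helicase gene Upf1 was at the floor in the cortex and at 0.649 in the epithelium, so its difference is not known.

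**Figure D4:**
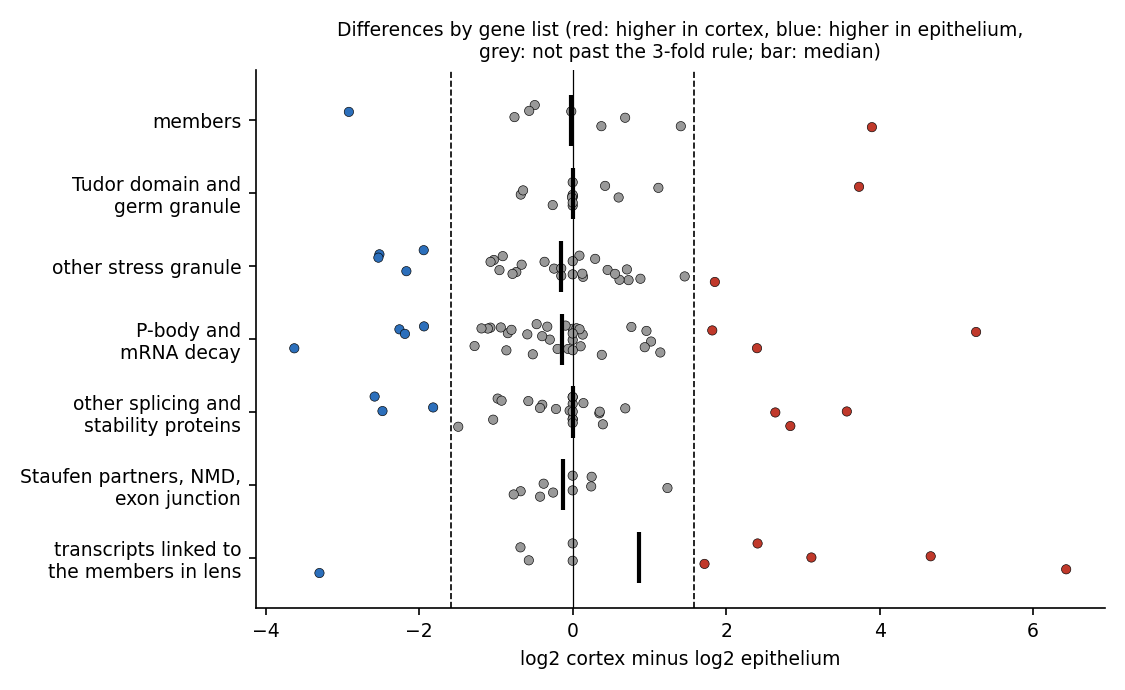
log2 cortex minus log2 epithelium (horizontal axis) of each measured gene of the members and of 6 gene lists (rows), 1 array per sample, with the median of each list as a bar and dashed lines at 3-fold. The medians of the members and of the 5 surrounding lists lie between -0.15 and 0.00, with genes at the floor on both arrays set to 0. Over genes above the floor on both arrays, those of the 5 lists lie between -0.43 and -0.24. The lens transcripts in the lowest row spread from -3.30 to 6.43.

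A last list held 12 lens genes, several of which earlier work connected to TDRD7, CELF1 or RBM24. Of 10 measured, 5 were higher in the cortex and 1 in the epithelium, beside 9.41% and 8.17% of all genes. Quantile normalization and loess each left 4 in the cortex and 2 in the epithelium, and the ribosomal centring left 3 and 2. The list was drawn up with results of these arrays known, so its counts are a description. Whether they relate to TDRD7, CELF1 or RBM24 was not tested. Hspb1, a small heat shock protein, stood at 1197 in the cortex and 13.9 in the epithelium (86.4-fold), and Hsf4, a heat shock factor of fiber cells, at 139 and 5.46 (25.4-fold). Dnase2b, the nuclease that degrades fiber cell DNA and a transcript that depends on CELF1, stood at 28.4 and 3.29 (8.64-fold). These 3 were higher in the cortex under every scaling tried.

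Crybb3, a β-crystallin, stood at 1037 in the cortex and 195 in the epithelium (5.32-fold). It did not pass after quantile normalization (2.48-fold), loess (2.18-fold) or centring on ribosomal protein genes (2.81-fold). Epha2, an ephrin receptor of the lens, stood at 5.54 and 1.68 (3.29-fold, and 1.74-fold after that centring). Sox2, the mRNA bound by RBM24, was dim on both arrays (0.866 and 1.29) and under the rule. Foxe3, a transcription factor of the lens epithelium, was at the floor in the cortex and at least 9.86-fold higher in the epithelium. Sparc, a matrix glycoprotein, stood at 335 and 538, under the rule with the deposited scaling, and passed toward the epithelium under the 3 others. Cdkn1a and Epas1 were at the floor on both arrays.

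The samples carried the markers of their labels in these values. Of 10 measured fiber markers 8 were higher in the cortex, and of 7 measured epithelial markers 6 were higher in the epithelium. The summed intensity of the epithelial markers was 4.87 in the cortex and 406 in the epithelium, while that of the fiber markers was 15237 and 3315. The sum in the epithelium came mostly from the crystallins Cryba1 (1016), Cryab (1015), Crybb1 (560) and Cryaa (468), so crystallin transcripts were abundant on both arrays. Of the other fiber markers, Grifin stood at 150 and Gja3 at 75.4 in the epithelium. Bfsp1 (12.5), Mip (7.72), Lim2 (6.72) and Lgsn (2.91) were lower there. Ciliary body markers summed to 27.8 in the cortex and 154 in the epithelium, with 3 of 6 higher in the epithelium and 1 at the floor on both, and pigment cell markers to 4.54 and 14.8, with Oca2 and Tyrp1 higher in the epithelium and Dct in the cortex. Vessel markers summed to 2.13 and 3.10, of which Tek gave 0.928 and 2.40, with 4 of 5 at the floor on both arrays, and leukocyte markers to 2.02 and 0.785, with 4 of 5 at the floor. None of the vessel, leukocyte, cornea (21.8 and 14.5) or retina markers (7.02 and 4.67) passed the rule. The part of these cells in the values of Tia1 and Tdrd7 was not tested. Part of the labels' text names fetal liver as the source, and of 9 measured liver markers 1, Ahsg, was higher in the cortex (185 against 16.9), while Afp stood at 0.660 and 0.680 and the 7 measured erythroid markers summed to 4.46 and 4.05.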

How the data were processed

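Per the labels, biotin-labelled complementary RNA made from poly(A) RNA was hybridized to a 1-colour CodeLink mouse array and read with the CodeLink software. The deposited values are 1 intensity per probe for 19819 probes, linear and scaled by array. Values below 0 (161 in cortex, 74 in epithelium) can arise when a background is subtracted. What was done for scaling and background is not stated in the labels. The platform annotation gave 15120 probes 1 symbol, 38 several and 4661 none, and 15064 of the first matched RefSeq (GRCm38.p6) by Entrez identifier. Probe sequences were not used here.

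The deposited scaling was kept. Values below 0.5 of the array median were raised to that floor, log2 was taken, and the probe with the highest mean represented a gene. A gene with both values at the floor has a difference of 0. Genes were called by a rule of size, 3-fold with the brighter value at or above its array median. Named genes are all members, up to 5 genes per direction of each other list past the rule, the whole list of lens transcripts, and the 5 genes nearest to Tdrd7. Named outside that rule were Tial1, Usp10, Stau2, Tdrd3, Snd1, Ptbp2, Upf1, the Tudor list genes at the floor and some cell type markers. The members and lists were chosen with earlier results of these data known. The number of arrays limits the precision. The procedure was also run on simulated data. Their noise was set to the spread between probes, which holds no variation between arrays or animals, so that run does not bear on the calls. Python 3.11.15, numpy 2.4.6, pandas 2.3.3, statsmodels 0.14.6 (loess span 0.3) and matplotlib 3.10.9 were used.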

Additional observations from a re-analysis of the deposited data

How the results depend on the processing

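The higher calls of Tdrd7 in cortex and of Tia1 in epithelium held under all 10 alternatives, which changed the scaling, the floor, the probe summary, the fold limit or the brightness minimum. Only the other scalings and the 5-fold limit could have changed these 2 calls. Each of the 2 genes has 1 probe, its deposited values lie above both floors, and its brighter value lies far above the brightness minima. Centring on ribosomal protein genes raised the number of members higher in epithelium from 1 to 2 (Stau1) and moved the members' median difference from -0.02 to -0.94. With it the surrounding lists together had 5 of 118 genes higher in cortex and 32 in epithelium, against 8 and 11. All 13709 genes gave 4.30% and 20.1% with that centring, against 9.41% and 8.17%. Of all calls, 53.5% lay in cortex with the deposited scaling and 17.6% after that centring. A 2-fold limit gave 2 members higher in cortex, with Rbm24 added, and 13 and 19 genes of the surrounding lists. Over all genes that limit gave 16.4% and 15.3%. A 5-fold limit gave 6 and 5 genes of these lists, beside 5.09% and 3.48% of all genes. The floor at the array median gave 8 and 8, beside 8.07% and 6.40%. Which sample had more calls thus depended on the setting. Over all alternatives the counts in cortex and epithelium ranged from 0 to 2 and 2 to 10 for stress granule genes, and from 1 to 5 and 1 to 12 for decay genes. They ranged from 3 to 3 and 2 to 7 for splicing and stability genes, from 1 to 2 and 0 to 1 for Tudor genes, from 0 to 1 and 0 to 2 for Staufen partners, and from 3 to 5 and 1 to 2 for the lens transcripts. The share of all genes called ranged from 4.30% to 16.4% in cortex and from 3.48% to 20.1% in epithelium. No other probe of a member was at hand, so that alternative gave no value. No paired analysis was possible because each group has 1 array. Each member rests on 1 probe and 1 array per sample, and Tia1, G3bp2 and Stau1 in cortex lie within 3-fold of the array median.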
